A study of Mus musculus with 12 samples.

Results

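The 33 genes described here are markers of cortical neurons, followed in ribosome-bound RNA that was pulled down from astrocytes. They are the rows of the count table whose symbol is on a list of pan-neuronal, excitatory, cortical layer and inhibitory neuron markers. These are 33 of 52550 features. The rule used no measured value, but the list was chosen with earlier results of these data known. The mice were Fmr1 knockouts (Fmr1-/y, KO) and wild-type animals (Fmr1+/y, WT), both carrying the Aldh1l1-TRAP transgene on an FVB/C57 background, at postnatal day 40. In Aldh1l1-TRAP mice a promoter active in astrocytes drives a ribosomal protein tagged with eGFP, and antibody beads against eGFP collect the tagged ribosomes with their RNA from sections of somatosensory cortex. There were 3 KO libraries, numbered 14, 16 and 18, and 3 WT libraries, numbered 13, 15 and 17, and in what follows the values of each genotype are given in that order. Each library had been deposited as a pair of entries, which were summed. Whether libraries stand for separate animals, or for pools, is not stated in the labels, so a p-value here measures the spread between 6 libraries, which may be technical.

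A pull-down of tagged ribosomes enriches the RNA of the cells that carry the tag, and RNA of other cells of the tissue is known to remain at some level. Neuronal markers serve as a gauge of that remainder in an astrocyte preparation, since cortical astrocytes hold little or none of most of these transcripts while neurons hold much of them. In cells other than neurons many neuronal genes are kept silent by the repressor REST, which binds a DNA element called RE1 made of a left and a right part. In bulk RNA of this kind, fewer neuronal cells or processes and less RNA per cell cannot be told apart. Unbound or whole-tissue RNA was not analysed here, so no enrichment or depletion of these transcripts by the pull-down can be given.

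Promoter sequences, from 250 bases before to 50 bases after an annotated start, were available from RefSeq (GRCm38.p6) for 26 of the 33 genes, in 31 windows. The others were Snap25, Stmn2, Nefl, Nefm, Nefh, Camk2a and Thy1. The letters CAGCACC of the left RE1 part were found in 4 of 31 windows (12.9%), against 7.14% of 32851 mouse promoter windows, and the letters GGACAGC of the right part in 5 of 31 windows (16.1%), against 6.56%. Either part was present in 22.6% of the windows of these genes and in 13.1% of all windows. Both parts were present in 6.45% of the windows of these genes (Pvalb and Tubb3) and in 0.575% of all windows. A joined form, the left part, any 2 bases and then GGACAG, was in 0 of the 31 windows and in 0.0365% of all windows. Only exact letters were counted, so a site with a changed base was missed. Both strands were searched and no hit overlapped another. The windows of Syn1, Tubb3, Map2 and Rorb are shown because these genes span the range of library-to-library behaviour given further on. Swings were large for Syn1 and Tubb3 and smallest for Map2, and Rorb had the opposite order. All 4 windows shown hold a part, unlike most windows of the 33 genes, and another Rorb window, not shown, holds neither part. Capitals mark the letters of a part, which read GGTGCTG or GCTGTCC where the match is on the other strand.
Syn1, chrX:20920869-20921168, minus strand: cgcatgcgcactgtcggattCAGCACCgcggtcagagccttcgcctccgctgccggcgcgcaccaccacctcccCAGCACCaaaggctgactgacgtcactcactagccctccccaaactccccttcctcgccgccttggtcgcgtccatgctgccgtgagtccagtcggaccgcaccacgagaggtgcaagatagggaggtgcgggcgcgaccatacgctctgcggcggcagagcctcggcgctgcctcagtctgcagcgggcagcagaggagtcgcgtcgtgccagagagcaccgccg
Tubb3, chr8:123411303-123411602, plus strand: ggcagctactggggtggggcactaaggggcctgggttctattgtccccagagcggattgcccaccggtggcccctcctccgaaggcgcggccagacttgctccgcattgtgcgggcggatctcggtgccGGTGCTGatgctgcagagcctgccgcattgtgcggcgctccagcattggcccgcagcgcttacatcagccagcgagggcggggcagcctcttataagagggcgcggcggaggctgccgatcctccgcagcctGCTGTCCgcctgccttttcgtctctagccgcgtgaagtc
Map2, chr1:66175079-66175378, plus strand: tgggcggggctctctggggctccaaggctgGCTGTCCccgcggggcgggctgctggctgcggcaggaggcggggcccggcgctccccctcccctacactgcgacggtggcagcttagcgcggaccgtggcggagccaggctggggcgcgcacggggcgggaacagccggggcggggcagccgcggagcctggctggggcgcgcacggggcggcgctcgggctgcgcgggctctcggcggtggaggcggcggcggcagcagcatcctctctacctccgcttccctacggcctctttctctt
Rorb, chr19:19111147-19111446, minus strand: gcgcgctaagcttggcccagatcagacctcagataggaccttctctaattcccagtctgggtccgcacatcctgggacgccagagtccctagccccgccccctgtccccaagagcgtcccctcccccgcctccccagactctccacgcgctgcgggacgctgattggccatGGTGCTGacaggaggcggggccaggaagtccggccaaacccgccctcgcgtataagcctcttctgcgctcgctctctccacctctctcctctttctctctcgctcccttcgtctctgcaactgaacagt
Counted from the annotated start, Syn1 holds the left part at -230 and -176. The bases after the part at -230 read gcggtcag, close to the any 2 bases and GGACAG of the joined form but not an exact match. Tubb3 holds a left part at -121 and a right part at 11, Map2 a right part at -220 and Rorb a left part at -79. A match is a description of letters, and binding of REST was not measured.

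Total counts per library ran from 10953958 to 21696862 in the KO libraries and from 19787520 to 22397202 in the WT libraries. Features known to collect ribosomal RNA reads held 35.6% and 45.1% of the counts in KO libraries 14 and 16, against at most 7.45% in the other 4. Levels are therefore given as CPM, counts divided by a library size that was scaled with the trimmed mean of M-values (TMM). Fmr1 itself stood at 1.32 to 4.32 CPM in KO libraries and at 31.6 to 38.4 CPM in WT libraries, low in each library labelled KO. The 20 astrocyte markers summed to 36246 to 44819 CPM in KO and to 36953 to 46590 CPM in WT. The 8 endothelial markers summed to 4.08 to 11.7 CPM in KO and to 6.13 to 9.95 CPM in WT, with Tek too low to be tested and Kdr at 0 in KO library 16. The 10 microglia markers summed to 55.0 to 63.4 CPM in KO and to 58.4 to 76.4 CPM in WT. All 33 neuronal markers passed the filter on low counts, with 23147 to 116937 counts in KO libraries and 59155 to 113808 in WT libraries over the set. The smallest single count was 47, for Slc32a1 in KO library 16 (95% Poisson interval 34.5 to 62.5, counting error only). The pair of entries of a library differed at p under 0.05 (exact binomial test, two-sided, unadjusted) in 11 of 198 comparisons of these genes.

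The summed level of neuronal RNA did not separate by genotype. The 33 markers summed to 3705, 3259 and 4524 CPM in KO libraries 14, 16 and 18, against 2519, 3896 and 4355 CPM in WT libraries 13, 15 and 17. The lowest and the second highest library were both WT and the highest was KO, so the genotypes overlapped. The means were 3829 ± 641 CPM in KO and 3590 ± 955 CPM in WT (SD, n = 3 each), a log2 ratio of 0.09. The ratio was -0.30 on unscaled totals and 0.056 on totals without the features that collect ribosomal RNA reads. Without WT library 13 the ratio was -0.11, and without KO library 18 it was -0.044. It was larger at 0.20 without KO library 16, 0.26 without WT library 17, 0.16 without WT library 15 and 0.33 without libraries 14 and 16.

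The libraries with the highest neuronal marker sums had the lowest astrocyte and the highest oligodendrocyte marker sums. CPM are shares of a scaled library total, so these sums are relative levels and not amounts of RNA. The astrocyte markers summed to 41183, 44819 and 36246 CPM in KO, against 46590, 41580 and 36953 CPM in WT. Library 13 was highest, followed by library 16, and libraries 18 and 17 were lowest, the reverse of the neuronal order except that libraries 14 and 15 kept theirs. The neuronal sum amounted to 8.996%, 7.27% and 12.5% of the astrocyte sum in KO, against 5.41%, 9.37% and 11.8% in WT, a ratio that depends on the genes chosen and is only compared between libraries. The 11 oligodendrocyte markers, genes of the myelin-forming cells, summed to 977, 645 and 1495 CPM in KO, against 709.8, 930 and 1267 CPM in WT. Libraries 18 and 17 were thus highest for both neuronal and oligodendrocyte RNA in their genotype. All 11 oligodendrocyte markers were tested, 0 were called, and none was at 0 in any library. Their part in the neuronal values was not tested.

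**Figure D1:**
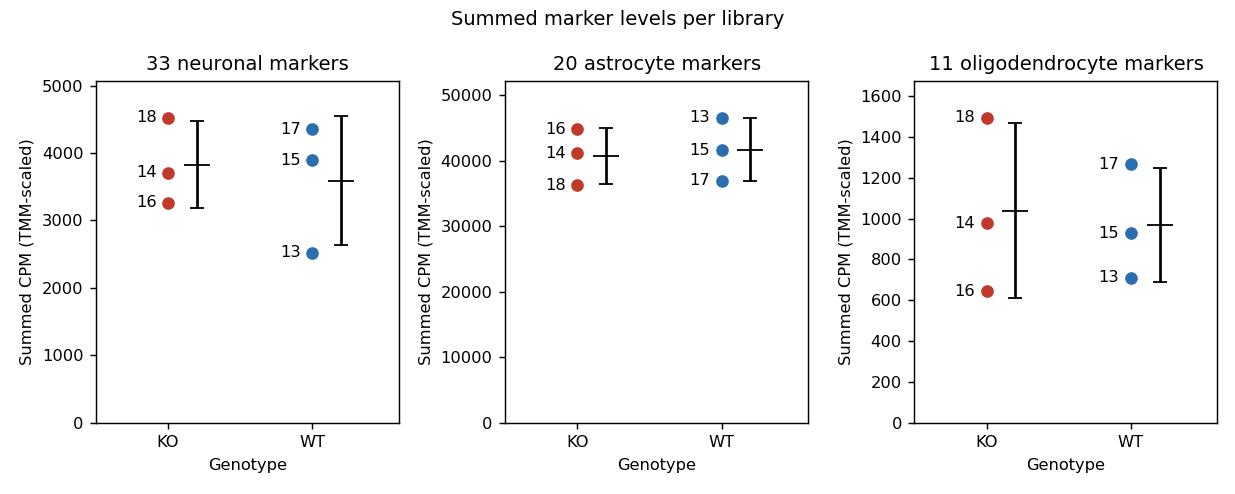
Summed TMM-scaled CPM (y axis, from 0) of the neuronal, astrocyte and oligodendrocyte markers in each KO and WT library (points, with library numbers), and the mean with 1 SD beside them (n = 3 each). The neuronal sums of KO (3259 to 4524 CPM) and WT (2519 to 4355 CPM) overlap, and library 13 is lowest for neuronal and highest for astrocyte markers.

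The low neuronal level of WT library 13 was shared by nearly the whole set. It was the lowest of the 6 libraries for 26 of 33 genes (78.8%), against 20.6% of the 9468 genes in the same range of mean levels. WT libraries 15 and 17 both lay above library 13 in 31 of 33 genes (93.9%), against 38.3% of all tested genes, the exceptions being Sst and Rorb. At the upper end, KO library 18 was the highest for 18 genes (54.5%) and WT library 17 for 11 genes (33.3%), against 21.2% and 16.2% of genes in the level range. KO libraries 14 and 16 were the highest for 0 of the 33, against 12.8% and 19.1% of genes in the level range.

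The genes differed in how far they swung between libraries. The ratio of the highest to the lowest library had a median of 2.27 over the 33 genes, against 1.46 over all genes in the level range, of which 7.91% exceeded 2.27. It was above 3 in 5 genes and under 1.5 in 3 genes. By role, the median ratio was 3.29 for the 3 neurofilament genes, 2.68 for 6 excitatory genes, 2.26 for 9 inhibitory genes, 1.99 for 10 pan-neuronal genes and 1.79 for 5 layer factors.

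**Figure D2:**
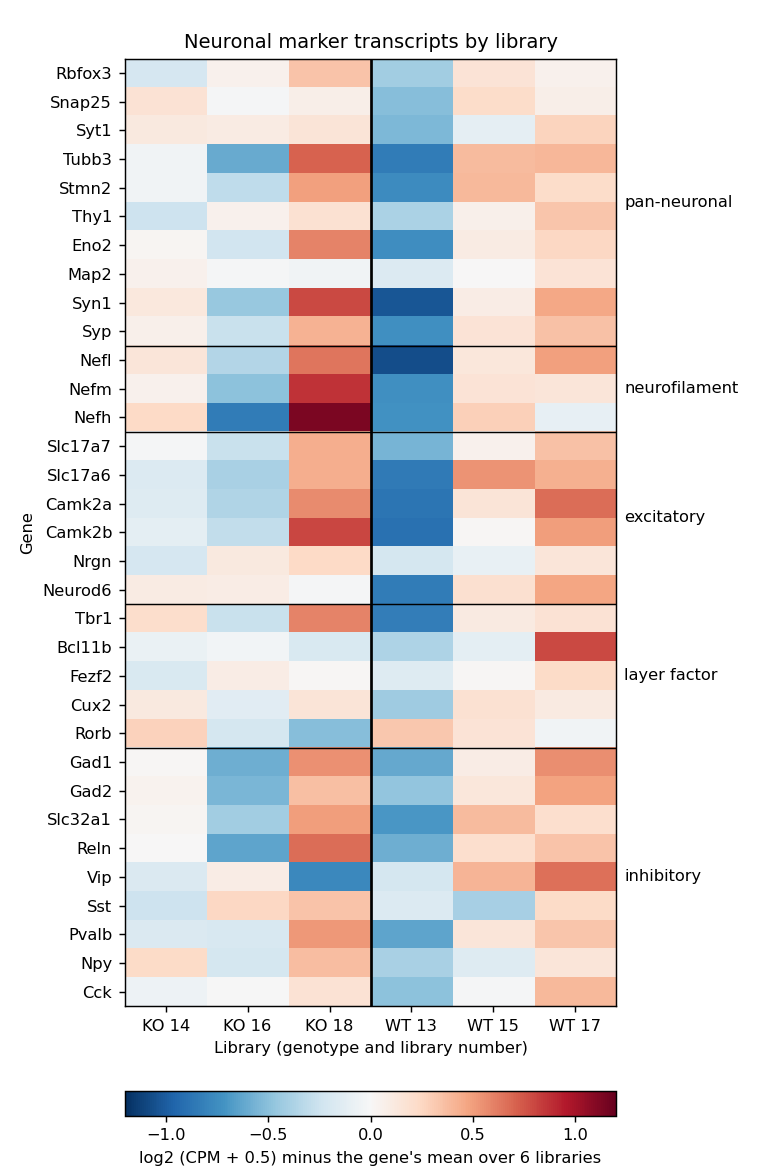
Each row is a neuronal marker and each column a library, KO on the left, and colour gives log2(CPM + 0.5) minus the gene's own mean over the 6 libraries (red higher, blue lower). WT library 13 is blue in nearly every row and KO library 18 red in most, while Map2 and Fezf2 are pale throughout, and Rorb runs the other way.

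Synaptic vesicle genes of all neurons showed both steep and shallow patterns. Syn1, which encodes synapsin I of the vesicle surface and lies on the X chromosome, measured 74.5, 49.6 and 118 CPM in KO, against 33.2, 72.2 and 93.9 CPM in WT. Its ratio of highest to lowest library was 3.56, and WT library 13 and KO library 18 formed the ends. Syp, the vesicle membrane protein synaptophysin, measured 185, 148 and 237 CPM in KO, against 106, 199 and 227 CPM in WT, in the same order at the ends. Syt1, the calcium sensor of vesicle release, measured 311, 307 and 319 CPM in KO, against 196, 265 and 345 CPM in WT. The KO libraries of Syt1 spanned 1.04-fold, whereas the WT libraries spanned 1.76-fold. Snap25, a component of the fusion machinery, measured 836, 735 and 781 CPM in KO, against 521, 864 and 779.7 CPM in WT, so that WT library 13 stood apart below 5 libraries of similar level.

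Cytoskeletal and other pan-neuronal genes were as varied. Tubb3, the neuronal class of beta tubulin, measured 156, 105 and 262 CPM in KO, against 89.4, 209 and 211 CPM in WT. The libraries of Tubb3 spanned 2.93-fold, with KO library 16 nearly as low as WT library 13. Stmn2, a microtubule regulator of growing axons, measured 57.5, 47.9 and 83.6 CPM in KO, against 35.05, 77.6 and 69.2 CPM in WT, and Eno2, neuron-specific enolase of glycolysis, measured 256, 214 and 381 CPM in KO, against 150.2, 269 and 299 CPM in WT. Both had their extremes in WT library 13 and KO library 18. Map2, the microtubule protein of dendrites, measured 302, 288 and 284 CPM in KO, against 259.9, 293 and 326 CPM in WT. It had the narrowest span of the set, 1.25-fold, yet its lowest library was again 13. Thy1, a surface glycoprotein, measured 72.6, 88.99 and 97.9 CPM in KO, against 66.2, 89.6 and 109 CPM in WT, and Rbfox3, the nuclear splicing factor known as NeuN, measured 33.03, 39.4 and 48.4 CPM in KO, against 28.3, 42.5 and 39.3 CPM in WT. In both, KO and WT overlapped and library 13 was lowest.

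The neurofilament genes, which encode the intermediate filaments of large axons, swung the most. Nefl, the light chain, measured 136, 95.8 and 192 CPM in KO, against 58.3, 134 and 173 CPM in WT. Nefm, the medium chain, lies next to it on chromosome 14 (mm10; Nefl 68083863 to 68089095, Nefm 68119545 to 68125004) and measured 39.97, 27.3 and 70.6 CPM in KO, against 22.9, 43.3 and 42.7 CPM in WT. Nefh, the heavy chain, measured 22.9, 10.6 and 42.7 CPM in KO, against 11.5, 23.7 and 18.02 CPM in WT. KO library 18 was the highest for all 3 chains, and the KO libraries of Nefh spanned 4.04-fold, against 2.07-fold among its WT libraries.

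All 6 excitatory markers were lowest in library 13, while the order of the other libraries varied. Camk2a, the alpha subunit of the synaptic kinase CaMKII, measured 143, 124 and 236 CPM in KO, against 86.9, 177 and 254 CPM in WT. Camk2b, its beta subunit, measured 153, 136 and 289.9 CPM in KO, against 89.1, 168 and 237 CPM in WT. Within WT alone, Camk2a spanned 2.92-fold and Camk2b 2.66-fold. Slc17a7, the main vesicular glutamate transporter of cortical neurons, measured 174, 147 and 239.8 CPM in KO, against 119.7, 183 and 226 CPM in WT, and Slc17a6, the form typical of thalamic neurons, measured 9.79, 8.31 and 15.05 CPM in KO, against 5.88, 16.2 and 14.96 CPM in WT. For both, library 13 was lowest. Neurod6, a transcription factor of pyramidal neurons, measured 14.3, 14.2 and 13.2 CPM in KO, against 7.20, 15.2 and 18.7 CPM in WT, with KO libraries that spanned only 1.08-fold against 2.59-fold among WT libraries. Nrgn, the calmodulin-binding protein neurogranin of dendrites, measured 172, 215 and 234 CPM in KO, against 171, 186 and 219.9 CPM in WT, the shallowest of the 6 at 1.36-fold.

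Layer factors varied less by their median, but Tbr1 (2.76-fold) and Bcl11b (2.31-fold) lay above the median of the 33 genes (2.27-fold). Rorb ran the opposite way. Tbr1, a factor of deep-layer corticothalamic neurons, measured 25.9, 18.4 and 33.9 CPM in KO, against 12.3, 24.1 and 25.2 CPM in WT, with its ends in libraries 13 and 18. Bcl11b, a factor of deep-layer neurons that project below the cortex, measured 11.3, 11.7 and 10.5 CPM in KO, against 9.11, 10.98 and 21.01 CPM in WT. WT library 17 stood above the other 5 libraries, which lay close together. Fezf2, which acts with it in the same neurons, measured 24.8, 29.99 and 28.5 CPM in KO, against 25.3, 28.5 and 33.3 CPM in WT, and Cux2, a factor of upper layers, measured 23.7, 19.9 and 24.5 CPM in KO, against 16.2, 24.9 and 23.6 CPM in WT. Fezf2 spanned 1.34-fold, and in Cux2 library 13 was lowest. Rorb, a nuclear receptor of the input layer that is also known from cortical astrocytes, measured 179.7, 128 and 103 CPM in KO, against 185, 166 and 144 CPM in WT. It was highest in WT library 13 and lowest in KO library 18, the order of the astrocyte marker sums at those ends and the reverse of most neuronal markers.

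Inhibitory markers were less uniform: library 13 was the lowest for 5 of the 9 and library 16 for 2, while Vip and Sst had other lows. Gad1 and Gad2 encode the enzymes that make GABA. Gad1 measured 93.6, 61.4 and 136 CPM in KO, against 60.4, 98.6 and 136 CPM in WT, and Gad2 measured 27.2, 18.02 and 34.2 CPM in KO, against 18.99, 29.2 and 37.2 CPM in WT. Slc32a1, the vesicular GABA transporter, measured 9.14, 6.62 and 12.96 CPM in KO, against 5.37, 11.8 and 10.4 CPM in WT. In these genes libraries 13 and 16 were the low pair of the 6. Reln, the secreted glycoprotein reelin, measured 19.1, 12.1 and 30.6 CPM in KO, against 12.5, 21.96 and 24.3 CPM in WT, with the same low pair. Pvalb, a calcium buffer of fast-spiking interneurons, measured 15.6, 15.3 and 25.4 CPM in KO, against 11.2, 19.5 and 22.3 CPM in WT. Cck, a peptide made by interneurons and also by pyramidal neurons, measured 60.6, 62.9 and 71.3 CPM in KO, against 44.9, 62.7 and 82.8 CPM in WT, and Npy, neuropeptide Y, measured 14.5, 10.6 and 16.1 CPM in KO, against 9.33, 11.1 and 13.7 CPM in WT. All of these overlapped between genotypes. Sst, somatostatin, measured 24.6, 34.9 and 37.4 CPM in KO, against 26.1, 22.2 and 34.5 CPM in WT, where library 13 was not the lowest. Vip, vasoactive intestinal peptide, measured 23.98, 28.9 and 15.7 CPM in KO, against 23.5, 36.3 and 43.1 CPM in WT. KO library 18, the highest library for 18 of the 33 genes, was the lowest for Vip.

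The study's contrast, loss of Fmr1, called none of these genes. By edgeR's quasi-likelihood test with Benjamini-Hochberg adjustment at 0.05, 0 of 33 passed, where 0 of 14990 genes (0%) passed, and 0 of 33 had an unadjusted p under 0.05, against 265 genes or 1.77% of all. DESeq2 called 0 of the 33, against 8 genes or 0.0534% of all, and limma voom called 0, against 0% of all. At an unadjusted p under 0.05, DESeq2 had 1 of the 33, Vip, against 1.83% of all genes, and limma voom had 0, against 2%. Each KO library lay above each WT library in 0 of 33 genes, against 2.95% of all genes, and below in 0 of 33, against 3.25%. The log2 fold changes had a median of 0.09, with 23 above and 10 below 0, against a median of -0.0019 over all genes. That median was -0.14 without WT library 13 and -0.096 without KO library 18, whereas it was 0.22 without KO library 16, 0.19 without WT library 15 and 0.28 without WT library 17, where 31 of 33 lay above 0.

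How large a difference these 6 libraries leave room for depended on the gene. Map2 measured 291 ± 9.60 CPM in KO and 293 ± 32.9 CPM in WT (SD, n = 3 each), with a 95% interval of the fold from 0.799 to 1.24. Snap25 measured 784 ± 50.9 CPM in KO and 722 ± 179 CPM in WT, with an interval from 0.795 to 1.49. For Nefh, at 25.4 ± 16.2 CPM in KO and 17.7 ± 6.13 CPM in WT, the interval ran from 0.704 to 3.01 (log2 fold change 0.54, SE 0.46). The interval reached a level 2-fold higher in 6 genes and 2-fold lower in 3 genes, Slc17a6, Bcl11b and Vip. A p that misses the threshold therefore does not show equal levels.

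Vip had the smallest p of the 33. It averaged 22.9 ± 6.63 CPM in KO and 34.3 ± 9.99 CPM in WT (SD, n = 3 each), a log2 fold change of -0.60 (SE 0.28, 95% interval -1.24 to 0.04), with an unadjusted p of 0.0635 and, from the quasi-likelihood fit in edgeR, 1.00 after adjustment. KO libraries 14 and 16 (24.0 and 28.9 CPM) lay above WT library 13 (23.5 CPM), and the exact permutation p was 0.3, where 0.1 is the smallest that 3 libraries against 3 allow. Over the 14 other settings its log2 fold change ran from -1.10 to -0.38, below 0 in each. Its unadjusted p depended on the setting. With edgeR it was 0.00784 with the share of ribosomal RNA as covariate and 0.194 without WT library 17. Vip passed the adjusted threshold in none of the settings. In the authors' deposited table, which lists signal values for each of the 12 entries, Vip had a log2 fold change of -0.60. Its p there was 0.00237 before and 0.198 after adjustment. All 33 markers were listed in the authors' deposited table and 0 passed an adjusted p of 0.05, against 85 of its 14843 features, with log2 fold changes from -0.60 to 0.54.

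**Figure D3:**
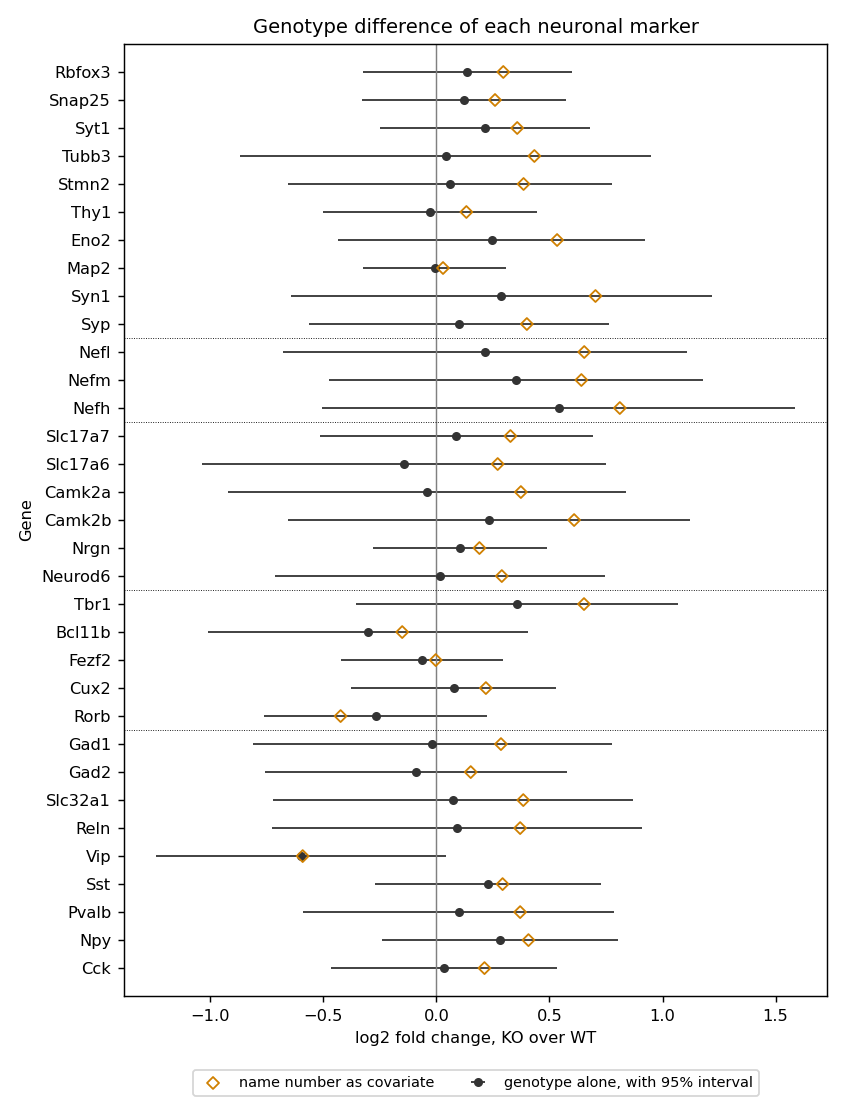
Log2 fold change of each neuronal marker, KO over WT, from edgeR (filled points, with 95% intervals) and with the name number of the library as a covariate (open diamonds). Every interval crosses 0, and 23 of 33 filled points lie above 0. With the covariate 29 lie above 0, and Vip, Rorb, Bcl11b and Fezf2 lie below in both fits.

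The library names hold a number that splits each genotype. Its meaning is not given in the labels. It is 5 for KO libraries 14 and 16 and WT library 13, and 6 for KO library 18 and WT libraries 15 and 17, so each number has a genotype with 1 library. Within number 5 the median deviation of the 33 genes from their 6-library mean was 0.01 and -0.23 in the KO libraries and -0.59 in the WT library. Within number 6 it was 0.42 in the KO library and 0.14 and 0.33 in the WT libraries. KO lay above WT without overlap inside both numbers in 15 of 33 genes (45.5%), against 11.6% of all genes, and below inside both in 1 gene, Rorb, against 10.4% of all. These counts rest on WT library 13 and KO library 18, each alone for its genotype at its number.

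With that number as a covariate the fold changes moved upward. Their median was 0.33, with 29 above and 4 below 0. Of the 33 genes 12 had an unadjusted p under 0.05, 11 of them higher in KO, against 709 genes or 4.73% of all. No marker passed, with a smallest adjusted p of 0.971 from edgeR's quasi-likelihood fit. Nefm had the smallest p (log2 fold change 0.64 with the covariate, 0.35 without, unadjusted p = 0.00356), followed by Eno2 (0.53 against 0.24), Camk2b (0.61 against 0.23), Tbr1 (0.65 against 0.36) and Syn1 (0.70 against 0.29). Rorb was the 1 lower gene of the 12, at -0.42 against -0.27. The 12 genes share the same 6 libraries and are not independent of each other. Without libraries 14 and 16, which hold the ribosomal RNA reads, the median over the 33 was 0.46, with 1 KO library left, 0 of 33 called (0% of all genes) and 4 at an unadjusted p under 0.05, against 3.63% of all genes.

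Neuronal genes outside the set followed the same libraries. For 25 other neuron genes the median deviation was -0.001, -0.19 and 0.34 in KO, against -0.55, 0.11 and 0.32 in WT, close to the 0.01, -0.23 and 0.42 in KO and -0.59, 0.14 and 0.33 in WT of the 33 markers. Of these 25, 0 were called by edgeR, 0 had an unadjusted p under 0.05 and 20 lay above 0, with a median log2 fold change of 0.06. Kif5a, a motor of axonal transport, measured 311, 253 and 464 CPM in KO, against 210.0, 318 and 393 CPM in WT. It was lowest in library 13 and highest in library 18. The 20 other excitatory genes had 0 called by edgeR and a median log2 fold change of 0.01. Of the 20, 1 had an unadjusted p under 0.05 with edgeR (Cux1, -0.39), against 1.77% of all genes. Chn1, a regulator of Rac signalling, measured 487, 425 and 570.4 CPM in KO, against 397, 529.5 and 613 CPM in WT.

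Other interneuron genes were mixed, with more of them below 0 in fold change. Of the 19 tested, 0 were called by edgeR and 1 had an unadjusted p under 0.05, against 1.77% of all genes. Of the 19, 6 lay above and 13 below 0, with a median log2 fold change of -0.27. Calb2, the calcium buffer calretinin found in many Vip interneurons, measured 6.69, 5.91 and 8.86 CPM in KO, against 7.20, 15.8 and 15.8 CPM in WT. Its log2 fold change was -0.84 (SE 0.33, unadjusted p = 0.0335, adjusted p = 1.00 with edgeR), and KO library 18 lay above WT library 13. Sox6, a factor of interneurons from the medial ganglionic eminence, measured 41.8, 37.3 and 28.9 CPM in KO, against 41.5, 43.9 and 44.9 CPM in WT, with KO library 14 between WT libraries. Cort, the peptide cortistatin, had the second smallest p of the list and the opposite direction. It measured 1.39, 0.986 and 1.08 CPM in KO, against 0.554, 0.434 and 0.765 CPM in WT (log2 fold change 0.98, SE 0.45, unadjusted p = 0.0618 with edgeR). Each KO library lay above each WT library in CPM, as in 2.95% of all genes. The counts behind these levels were low, at 17, 7 and 28 in KO and 13, 11 and 20 in WT. They overlapped before scaling for library size, which differed between libraries. Chodl, Dlx5 and a row named Dlx6os1 with 0 counts were not tested, while a second Dlx6os1 row was.

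Noncoding and dendritic RNAs of neurons were present as well. The 7 neuron-enriched noncoding RNAs, several of which stay in the nucleus, had a median deviation of 0.06, 0.01 and 0.31 in KO, against -0.61, -0.02 and 0.37 in WT, with 0 called by edgeR and 0 at an unadjusted p under 0.05. Rian, a maternally expressed long RNA, measured 107, 101 and 134 CPM in KO, against 71.97, 99.1 and 102 CPM in WT, lowest in library 13. Peg13 measured 149, 193 and 201 CPM in KO, against 149, 141 and 146 CPM in WT, so that KO library 14 and WT library 13 had the same level to 3 digits. The 14 mRNAs reported in dendrites had 0 called by edgeR and a median log2 fold change of 0.03. Of the 14, 2 had an unadjusted p under 0.05 with edgeR, against 1.77% of all genes. This list shares genes with the other neuron genes and with the activity-induced genes below, so the lists are not separate. Among them Kif5c, a transport motor, measured 246, 177 and 281 CPM in KO, against 155, 269.7 and 289 CPM in WT.

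Genes induced by neuronal activity did not follow the neuronal level. Npas4, a transcription factor known mainly from active neurons, measured 11.3, 6.34 and 8.94 CPM in KO, against 2.60, 1.70 and 2.37 CPM in WT. Its KO libraries all lay above its WT libraries, while the neuronal sum of KO library 16 (3259 CPM) was below that of WT libraries 15 and 17 (3896 and 4355 CPM). The median deviation of the 12 activity-induced genes was 0.58, 0.63 and 0.10 in KO, against -0.47, -0.54 and -0.41 in WT. Of these 12, 0 were called by edgeR and 9 had an unadjusted p under 0.05, against 1.77% of all genes. Each KO library lay above each WT library in 8 of them, against 2.95% of all genes, and below in 1, against 3.25%. Their median log2 fold change was 0.97. The 2 KO libraries with the higher medians are those with the large ribosomal RNA share, whose part in this was not tested.

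**Figure D4:**
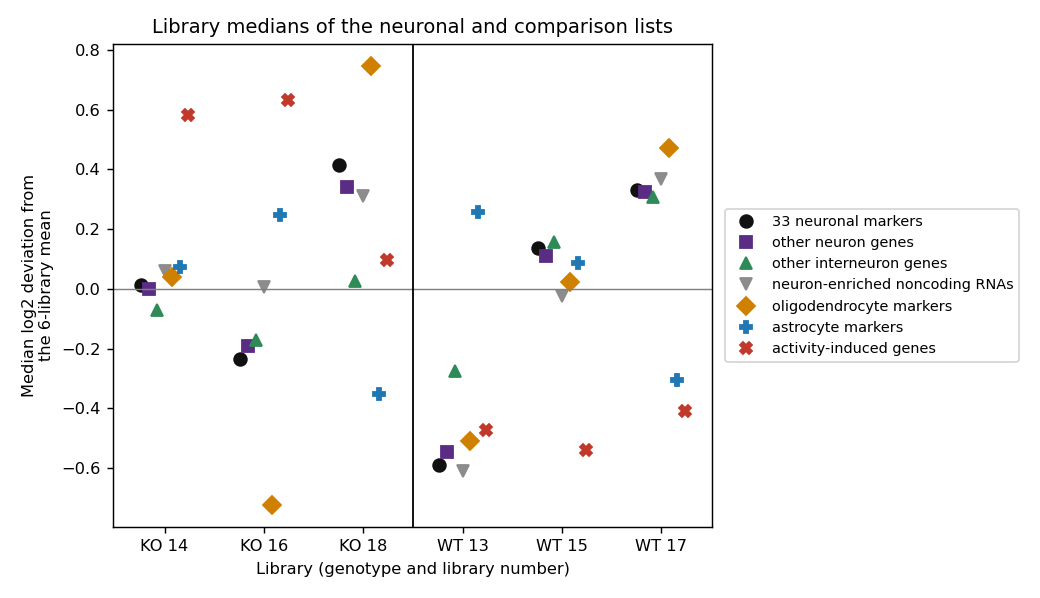
Median log2 deviation from the 6-library mean (y axis) of the neuronal markers and 6 comparison lists in each library (x axis, KO on the left). The neuronal markers and other neuron genes move together from -0.59 and -0.55 in library 13 to 0.42 and 0.34 in library 18, the astrocyte markers run opposite at the ends, and the activity-induced genes do not follow.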

How the data were processed

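Ribosome-bound RNA from 6 libraries (3 KO and 3 WT, deposited as 12 entries) had been sequenced as stranded total-RNA libraries after removal of ribosomal RNA, per the labels' protocols. Values in the deposited gene table are expected counts from RSEM, per the file headers, and are not normalized. The submitters' processing notes name STAR 2.5.3a, RSEM 1.3.0, edgeR and mm10. The annotation release and strand setting were not given in the sources used here. A second table, the authors' deposited comparison, gives per gene a log2 fold change (KO over WT, judged by Fmr1), its p-value before and after adjustment, and scaled signal values of the entries, which were not used.

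The pair of entries of each library was summed, and the expected counts were rounded and counted as 1 sample. Genes were filtered with filterByExpr, which kept 14990 of 52550, scaled with TMM and tested for genotype with the quasi-likelihood F test of edgeR 4.0.16 (R 4.3.3) on all genes, with Benjamini-Hochberg adjustment at 0.05. The test had 4 residual degrees of freedom and a median of 8.24 in all, and the common biological coefficient of variation was 0.261. DESeq2 1.42.0 and limma voom (limma 3.58.1) were alternatives. SEs were taken from the F statistic. The code was tested on simulated data. Deviations used log2(CPM + 0.5). Gene lengths were not used, so levels are compared between libraries and not between genes. Promoter windows, gene positions and names came from RefSeq (GRCm38.p6, the same build as mm10).

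The 33 genes, the comparison lists and the settings were chosen with earlier results of these data known. All 33 genes are named, and of each other list the 3 genes with the highest mean level and the 2 with the smallest p could be named. Alternatives were other tests, scalings, filters and covariates, each library left out in turn and, added after seeing the data, libraries 14 and 16 left out and Rorb and Map2 left out of the sum.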

Additional observations from a re-analysis of the deposited data

How the results depend on the processing

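Of the 33 neuronal markers 0 were called under every setting run. Over all genes the count was 0 in the quasi-likelihood test on genotype, 8 with DESeq2, 6 with no filter on low counts, 1 with the share of ribosomal RNA as covariate, and 0 to 2 with a library left out. The summed level had a log2 ratio of 0.09 on TMM-scaled libraries and of -0.30 on unscaled totals. On totals without the features that collect ribosomal RNA reads it was 0.056. The median log2 fold change of the 33 was 0.09 and changed sign between settings, from -0.14 without WT library 13 to 0.46 without libraries 14 and 16. Each move was smaller than 0.41, the SD of single-library medians within a genotype. That SD is larger than the median itself, so small moves by this measure do not show a stable direction. Single genes changed direction in 73 of 462 comparisons, none of them called on either side, and 7 genes (Npy, Nrgn, Rorb, Sst, Syt1, Tbr1 and Vip) in 0. With a library left out the log2 fold changes ran from -0.022 to 0.26 for Rbfox3, -0.067 to 0.28 for Snap25, -0.38 to 0.30 for Tubb3, -0.22 to 0.28 for Stmn2, -0.12 to 0.55 for Nefl, -0.10 to 0.61 for Nefm, -0.067 to 0.89 for Nefh, -0.13 to 0.31 for Slc17a7, -0.48 to 0.10 for Slc17a6, -0.34 to 0.29 for Gad1, -0.32 to 0.15 for Gad2, -0.22 to 0.30 for Slc32a1, -0.37 to 0.35 for Camk2a, -0.19 to 0.59 for Camk2b, -0.20 to 0.15 for Thy1, -0.029 to 0.44 for Eno2, -0.086 to 0.075 for Map2, -0.10 to 0.62 for Syn1, -0.16 to 0.32 for Syp, -0.32 to 0.35 for Reln, -0.19 to 0.30 for Pvalb, -0.16 to 0.27 for Cck, -0.29 to 0.30 for Neurod6, -0.52 to 0.14 for Bcl11b, -0.15 to 0.046 for Fezf2 and -0.092 to 0.20 for Cux2. With limma voom Slc17a6 was at 0.035, Gad1 at 0.013 and Camk2a at 0.050. With the name number as a covariate Slc17a6 was at 0.27, Gad1 at 0.29, Gad2 at 0.15, Camk2a at 0.37, Thy1 at 0.13 and Map2 at 0.029. With the share of ribosomal RNA as covariate, Gad1 was at 0.15, Gad2 at 0.032, Camk2a at 0.11, Thy1 at 0.022 and Neurod6 at -0.094. Without libraries 14 and 16 Slc17a6 was at 0.31, Gad1 at 0.49, Gad2 at 0.29, Camk2a at 0.47, Thy1 at 0.18 and Neurod6 at -0.031. With DESeq2 and with its size factors in edgeR, Map2 was at 0.00041 and 0.00050. The causes of these moves were not tested. No paired analysis was possible because KO and WT libraries share no library number. With 1 KO library left, that library is assumed to vary like the WT libraries.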
